A study of Mus musculus with 2 samples.

Results

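The 10 genes E2f6, Mga, Max, L3mbtl2, Pcgf6, Rnf2, Rybp, Yaf2, Kdm5c and Kdm2b, which encode a variant Polycomb repressive complex 1 (PRC1) and associated histone demethylases, were followed in mouse embryonic stem (ES) cells labelled as lacking Dnmt1 and in their control cells. They were chosen by name, and all their probe sets in the platform annotation were taken, out of 18193 genes with a probe set of their own. Of the 10 genes, 9 had such probe sets, 30 in all, and the 2 probe sets of Rybp were shared with its pseudogene Rybp-ps. The study profiled total RNA, labelled as cRNA, on Affymetrix Mouse Genome 430 2.0 arrays. There was 1 array from ES cells labelled as a knockout (KO) of Dnmt1, the maintenance DNA methyltransferase, and 1 array from the control ES cells. Its stated purpose was a KO control for other work on stem cell differentiation. The ES cell line, the Dnmt1 allele, the passage, the culture conditions and whether the KO cells were 1 clone are not stated in the labels, and the KO array is known as such from its title, since the source name of both samples describes a control. With 1 array per group, there was no replicate spread to compare a difference with, and the comparisons below have no test.

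In mammals, variant PRC1 complexes share the ubiquitin ligase Rnf2 and either Rybp or Yaf2, and each is defined by its Pcgf subunit. In the complex built on Pcgf6, DNA is recognised by E2f6, which pairs with a DP protein, and by Mga, which pairs with Max. L3mbtl2 is a further subunit. The complex is known for keeping meiotic and other germline genes silent in ES cells, where many of the same promoters also carry DNA methylation. Kdm5c, which removes methyl groups from lysine in histone H3, has been found with E2f6 and Mga, whereas Kdm2b, a CpG-binding protein, recruits the related complex built on Pcgf1.

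The signals are MAS5 values, a summary, in linear units, of the probe pairs that make up a probe set. Each array's median over its non-control probe sets, 74.2 on the KO array and 60.9 on the control array, served as a floor below which signals carry no order. Each gene is given by its brightest probe set, and signals of different probe sets are not comparable as levels. Among the 10995 genes brighter than both floors, the median gene read 1.34-fold more on the KO array, which is a shift of 0.43 on the log2 scale. Log2 ratios (KO over control) are given relative to this shift unless they are called as deposited. Dnmt1 itself had a signal of 262.1 on the KO array and 1949.1 on the control array, 9.99-fold lower relative to the shift. As to the labelled cell type, all 10 ES cell markers were above the floor on both arrays, with summed signals of 37284.1 on the KO array and 28318.1 on the control array. Of 10 fibroblast markers, which feeder cells would carry, 6 were above the floor on both arrays (Fn1, Acta2, Thy1, Mmp2, Col1a2 and Col1a1) and 4 below it on both (Col3a1, Postn, Lum and Dcn). Fn1 was the brightest, with 2697.9 on the KO array and 2361.2 on the control array, Col1a1 had 80.2 on the KO array and 94.3 on the control array, and the list summed to 4857.7 on the KO array and 4157.1 on the control array. Of 7 endoderm markers, Sparc, Dab2 and Foxa2 were above both floors, Gata4, Gata6 and Sox17 above the floor on 1 array each, and Afp below both. Their sums were 2566.0 and 1499.0 on the KO and control arrays, of which Sparc gave 1904.0 and 1030.7.

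All 9 genes with their own probe sets gave signals above the floor on both arrays, at between 4.26 times (Kdm5c) and 27.0 times (Kdm2b) the floor on the KO array and between 4.66 times (Kdm5c) and 20.2 times (Kdm2b) on the control array. None was 2-fold different on the KO array in either direction, relative to the shift or as deposited. Of the 12226 genes above a floor on 1 or both arrays, 1.09% passed 2-fold upwards and 0.532% downwards relative to the shift, and 4.92% and 0.0982% as deposited, so a count of 0 among 9 genes is near this background. None of the 9 reached 1.5-fold relative to the shift either, where 4.74% of all genes were higher and 4.25% lower. Relative to the shift, 5 of the 9 genes lay above it and 4 below it, between -0.27 (Kdm5c) and 0.53 (Max), with a median of 0.12. The median over the 12226 genes was -0.00. As deposited, all 9 were brighter on the KO array, with a median log2 ratio of 0.55. Of the 9 genes, 7 lay between the 10th and 90th percentiles of the 10995 genes, which were -0.39 and 0.39, and Max and L3mbtl2 lay above them. Probe sets of the same gene differed in log2 ratio by an SD of 0.24, pooled over 4704 genes, which leaves out any difference between cultures or arrays. In bulk RNA, fewer cells expressing a gene and less RNA per cell cannot be told apart.

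**Figure D1:**
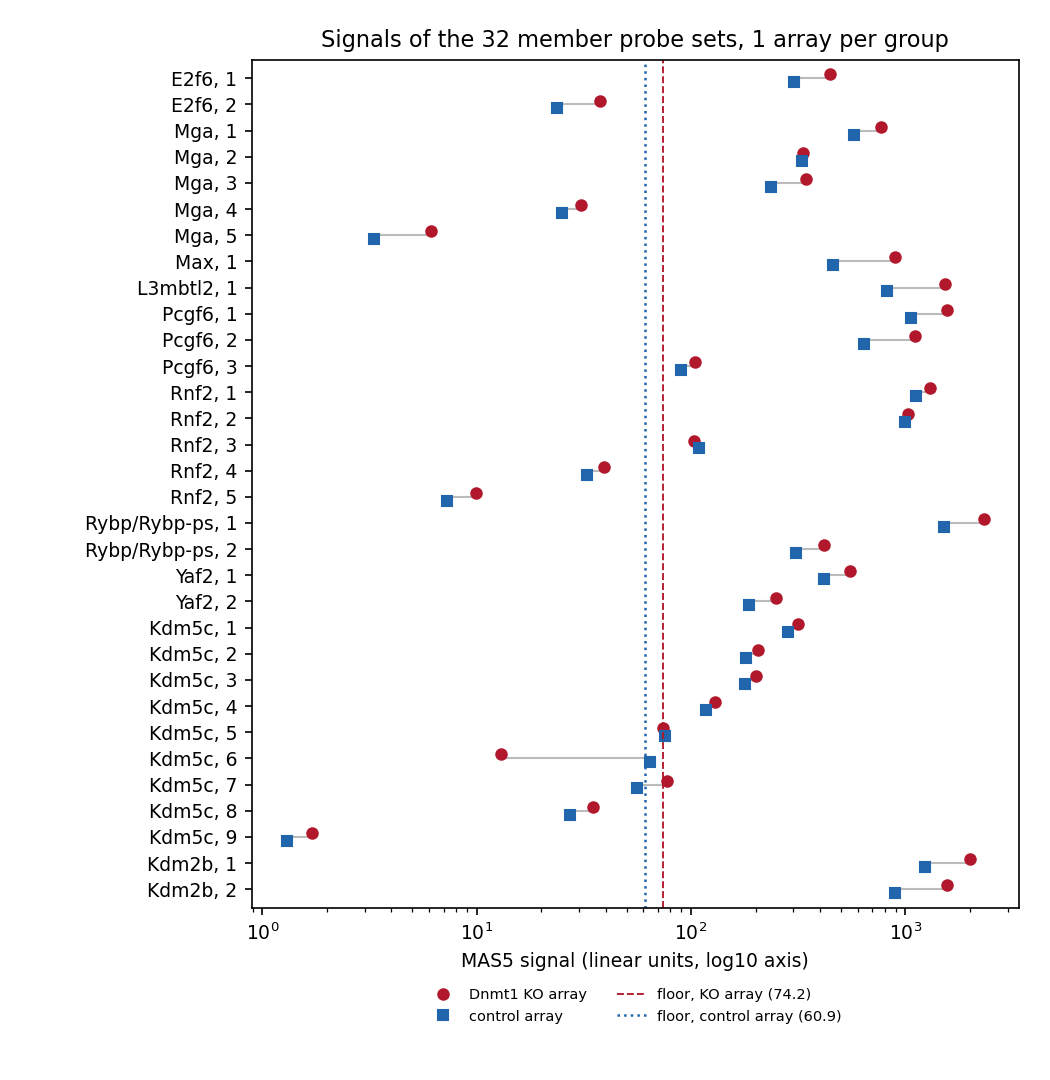
MAS5 signals (linear units on a log10 axis) of the 30 probe sets of the 9 genes and the 2 probe sets shared by Rybp and Rybp-ps, numbered within each gene from the brightest on the control array, with the Dnmt1 KO array as circles, the control array as squares and each array's floor as a vertical line. Of the 30, 21 are above the floor on both arrays, with log2 ratios between -0.51 and 0.53 relative to the median gene.

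Among the DNA-binding members, Max had the largest ratio, while E2f6 and Mga lay near the median gene. E2f6, a repressor of the E2F family that lacks an activation domain, had a signal of 442.9 on the KO array and 303.2 on the control array. Its log2 ratio was 0.12, at the 67.2 percentile of all genes, and 0.55 as deposited. The other E2f6 probe set was below both floors (37.6 on the KO array and 23.6 on the control array), so E2f6 rests on 1 probe set.

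Mga, the large protein that carries both a T-box and a Max-binding domain, had a signal of 773.6 on the KO array and 577.7 on the control array. Its log2 ratio was -0.00, at the 49.4 percentile, so Mga sat at the median gene. The 3 Mga probe sets above the floor differed among themselves, with log2 ratios between -0.40 and 0.11 and a mean of -0.10 ± 0.27 (SD between probe sets). The lowest of them read 333.9 on the KO array and 329.1 on the control array. The remaining 2 Mga probe sets were below both floors.

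Max, the partner of Mga and also of the Myc and Mxd proteins, stood highest. Its only probe set had a signal of 897.2 on the KO array and 461.7 on the control array, 1.45-fold higher relative to the shift and 1.94-fold higher as deposited. The log2 ratio of 0.53 was at the 94.5 percentile of all genes. It exceeded the pooled SD between probe sets, but no second Max probe set was present to set it against. The Max promoter window, 250 bases before to 50 after a RefSeq start site, was the only one of the 8 first listed windows, over the 10 genes, that held the E-box CACGTG, which Max dimers are known to bind. It is shown for that reason, read 5′ to 3′ from RefSeq on GRCm38.p6, with the E-box in capitals at position 248 of 300. The window was chosen after its values were seen. Of the 8 windows, 12.5% held the E-box, beside 7.24% of the first listed windows of 27025 genes. Among all such windows with at least 15 CpG the share was 11.5%, so the match in these 8 is near the background.
Max promoter, chr12:76962199-76962498, minus strand: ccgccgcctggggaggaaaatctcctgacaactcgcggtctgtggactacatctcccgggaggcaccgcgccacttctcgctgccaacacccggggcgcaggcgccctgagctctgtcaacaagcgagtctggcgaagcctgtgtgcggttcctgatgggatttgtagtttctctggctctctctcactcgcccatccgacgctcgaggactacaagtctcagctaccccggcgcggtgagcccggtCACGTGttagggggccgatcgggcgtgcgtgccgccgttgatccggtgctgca

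L3mbtl2, a methyl-lysine reader with MBT domains, followed Max. Its single probe set had a signal of 1534.5 on the KO array and 823.1 on the control array, a log2 ratio of 0.47 at the 93.1 percentile and 1.86-fold higher as deposited. Max and L3mbtl2, each on 1 probe set, were thus the upper end of the 9 genes, and both were under 1.5-fold relative to the shift. As deposited, Max, L3mbtl2 and Kdm2b were at least 1.5-fold higher, as were 28% of all genes.

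**Figure D2:**
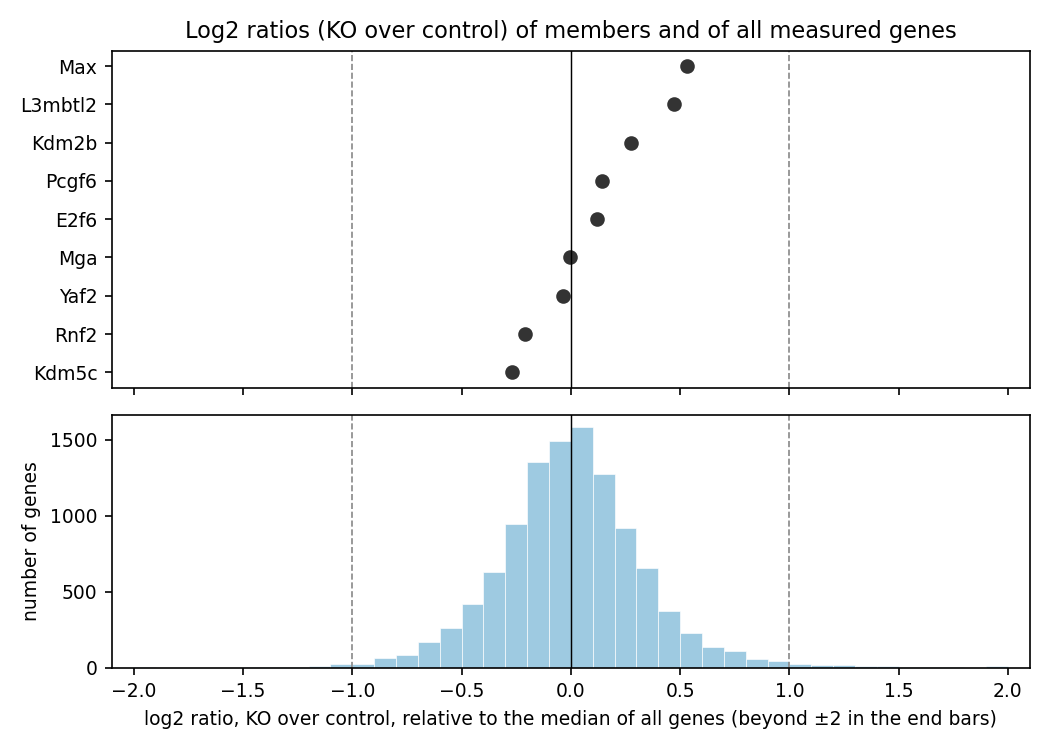
Upper panel, log2 ratio (KO over control, relative to the median gene) of the brightest probe set of each of the 9 genes. Lower panel, number of genes per 0.1 of the same ratio over the 10995 genes, with dashed lines at 2-fold. The 9 genes lie between -0.27 and 0.53, inside both dashed lines.

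Among the Polycomb subunits, Pcgf6, the RING-finger protein that defines the complex, had a signal of 1567.8 on the KO array and 1058.7 on the control array (log2 ratio 0.14, 69.7 percentile). Its second probe set had 1115.1 on the KO array and 642.9 on the control array (0.37), and the remaining one, close to the floors, had 104.1 on the KO array and 89.9 on the control array (-0.21). The 3 Pcgf6 probe sets averaged 0.10 ± 0.29 (SD) and disagreed in sign, so the direction of Pcgf6 was not settled by these arrays.

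Rnf2 (Ring1B), the catalytic ubiquitin ligase of histone H2A, lay below the median gene on every probe set that could be read. The brightest had 1301.9 on the KO array and 1120.2 on the control array (log2 ratio -0.21, 23.3 percentile). The next had 1024.9 on the KO array and 995.6 on the control array (-0.38), and a dim one had 103.2 on the KO array and 109.1 on the control array (-0.51). Their mean was -0.37 ± 0.15 (SD over 3 probe sets), and the other 2 probe sets were below both floors. The sign depended on the scaling, since the brightest Rnf2 probe set was at 0.22 as deposited.

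Rybp and Yaf2 are paralogs that take the same place beside Rnf2 in variant PRC1. Yaf2 had 549.4 on the KO array and 418.9 on the control array, and its second probe set 250.3 on the KO array and 185.8 on the control array. The log2 ratios were -0.03 and 0.00, so both Yaf2 probe sets sat at the median gene. Rybp could not be read alone. The brighter probe set shared by Rybp and Rybp-ps had 2319.6 on the KO array and 1518.3 on the control array (log2 ratio 0.19). The other shared probe set had 418.4 on the KO array and 309.2 on the control array (0.01). How much of these signals came from the pseudogene was not tested.

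The 2 demethylases lay on opposite sides of the median gene. Kdm5c, on the X chromosome, had the lowest ratio of the 9 genes, with 316.1 on the KO array and 283.9 on the control array (log2 ratio -0.27, 17.9 percentile). All 5 Kdm5c probe sets above both floors lay below the shift, between -0.44 and -0.23, with a mean of -0.29 ± 0.09 (SD). Their other signals on the KO and control arrays were 206.2 and 180.4, 201.5 and 177.7, 129.4 and 117.2, and 74.3 and 75.3. The last is close to the KO floor. Of the other 4 Kdm5c probe sets, 2 were below both floors, 1 was above the floor on the KO array alone (77.1, against 55.9 on the control array), and 1 on the control array alone (13.0 on the KO array, against 64.2). The 364 measured X-linked genes had a median of -0.08. As deposited, the brightest Kdm5c probe set was at 0.15, so the sign depended on the scaling.

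Kdm2b, in contrast, was above the shift on both probe sets. The brighter had 2000.1 on the KO array and 1228.8 on the control array (log2 ratio 0.28, 82.9 percentile) and the other 1558.1 on the KO array and 894.1 on the control array (0.38), a mean of 0.33 ± 0.07 (SD). Rnf2, Kdm5c and Kdm2b were the 3 genes with several readable probe sets all on 1 side of the median gene. Whether any of these genes differ from one another beyond culture and array error could not be tested.

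Over all 21 probe sets of the 9 genes above both floors, 9 lay above the shift and 12 below it. As deposited, 19 of them were brighter on the KO array and 2, of Rnf2 and Kdm5c, were dimmer. No gene was named for a pattern like that of these genes, since a pair of arrays gives each gene a single ratio.

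Proteins that work with the complex were measured as a list of 10 genes. Of these, 4 lay above the shift and 6 below it, none was 2-fold different, and the median log2 ratio was -0.12 (0.31 as deposited). Tfdp1, the DP partner of E2f6 and of other E2F proteins, had the largest ratio in size, with 1559.5 on the KO array and 2099.9 on the control array (log2 ratio -0.85, 1.81-fold lower). It was dimmer on the KO array as deposited too (-0.43). Tfdp1 is on chromosome 8, whose 601 measured genes had a median of -0.37, and the part of the chromosome in the Tfdp1 ratio was not tested. The other DP gene, Tfdp2, had 606.4 on the KO array and 405.0 on the control array (0.16). Ehmt2, a histone H3 lysine methyltransferase (G9a), had -0.29, with -0.18 ± 0.15 (SD) over 2 probe sets, and Ring1, the paralog of Rnf2, had -0.24. The heterochromatin proteins Cbx1 and Cbx3 had -0.11 and 0.00.

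The complex that Kdm2b recruits lay on the upper side. All 5 listed genes were above the shift, with a median of 0.35. As deposited 2 of them were past 2-fold, beside 4.92% of all genes, and relative to the shift none was, beside 1.09%. Bcor, a corepressor that binds Pcgf1, had 616.2 on the KO array and 234.8 on the control array, 1.95-fold higher relative to the shift, and its 3 probe sets averaged 0.92 ± 0.11 (SD). Its paralog Bcorl1 had 192.6 on the KO array and 84.7 on the control array (0.76). Pcgf1 had 124.4 on the KO array and 72.8 on the control array (0.35), with the control signal near its floor. Bcor and Bcorl1 are X-linked, as is Kdm5c, and lay above the X-chromosomal median of -0.08. Usp7, a deubiquitinase, and Skp1 had 0.20 and 0.16 on their brightest probe sets, but the 7 probe sets of Usp7 ran between -0.92 and 0.24, with a mean of -0.13 ± 0.40 (SD).

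The remaining Pcgf paralogs had a median of 0.45 over 4 genes, with 3 above the shift and none 2-fold different relative to it. As deposited 1 was higher, beside 4.92% of all genes. Bmi1 had 156.9 on the KO array and 62.1 on the control array (0.91). Its control signal was just above the floor of 60.9, so the ratio is close to a bound. Pcgf2 (Mel18) had 0.54, Pcgf5 0.36 and Pcgf3 -0.07.

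Of 7 other E2F genes, 2 lay above the shift and 5 below it, with a median of -0.18 and none 2-fold different. E2f4, also a repressor and also on chromosome 8, had 796.8 on the KO array and 878.3 on the control array (-0.57). E2f3 had -0.43 (-0.02 on its other probe set) and E2f8 -0.42, while E2f1, an activator of S-phase genes, had 0.35. E2f6 at 0.12 lay within their range.

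The list of the Max network had a median of 0.26 over 10 genes, 2 of which were bounds. Of the 10, 7 lay above the shift and 3 below it, and no value or bound was past 2-fold. The list includes Mlx and Mlxip (0.26 and 0.27), which belong to the parallel network of Mlx and are not partners of Max. Mnt, a Max-binding repressor, had 384.7 on the KO array and 207.0 on the control array (0.47), and Mxi1, of the same repressor type, 791.1 on the KO array and 434.6 on the control array (0.44, or 0.56 ± 0.17 SD over 2 probe sets). Mxd3 had 199.9 on the KO array and 200.4 on the control array (-0.43). Of the activating partners, which compete for Max, Myc and Mycn had -0.22 and -0.17, and Mycl 0.06, with all 3 Mycl probe sets above the shift (mean 0.20 ± 0.27, SD). Mxd4 was above the floor on the KO array alone (108.2 on the KO array and 53.1 on the control array), a log2 ratio of at least 0.40. Mxd1 was too (102.7 on the KO array and 10.9 on the control array), at least 0.33. Whether Mxd1 and Mxd4 passed 2-fold cannot be read from these lower bounds. Among the paralogs of the demethylases, Kdm5b had 0.23, Kdm2a -0.04 and Kdm5a 0.05 (its 3 readable probe sets averaged -0.31 ± 0.32, SD), and the Y-linked Kdm5d was below both floors.

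**Figure D3:**
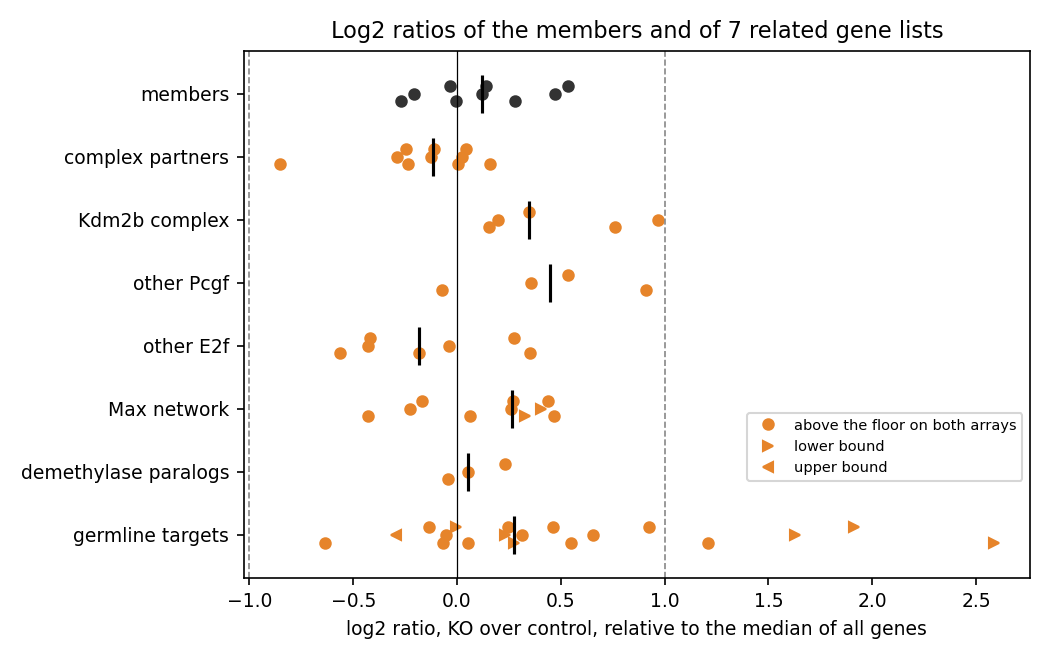
Log2 ratios (KO over control, relative to the median gene) of the 9 members, in dark points, and of the genes of 7 related lists above the floor on at least 1 array. Triangles mark bounds, black bars the list medians and dashed lines 2-fold. The germline targets, listed with several of their values known, reach at least 2.59. No value or bound of the other lists passes 2-fold, beside 1.09% of all genes higher and 0.532% lower.

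The germline targets were 24 genes drawn up as known targets of this complex or as germline genes silent in ES cells. Of these, 22 had a probe set of their own, 3 were below both floors (Meiob, Tdrd1 and Tuba3b), and 19 were measured, 12 of them above the floor on both arrays. Relative to the shift, 4 of the 19 passed 2-fold upwards and 0 downwards, beside 1.09% and 0.532% of all genes. As deposited the counts were 6 and 0, beside 4.92% and 0.0982%. The median log2 ratio of the 19, with genes at the floor on 1 array set at their bound, was at least 0.27. In 13 of 19 the value or bound lay above the shift. Among the 12 above both floors, only Stk31 passed 2-fold relative to the shift. Slc25a31, Dazl, Hormad1, Smc1b, Tex101 and Mei1 were measured through the KO array alone. The shares over all genes used the same filter. Several of these genes were already known to be higher on the KO array when the list was made, so its count is a description.

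Slc25a31, the germ-cell ADP/ATP carrier (Ant4), had 491.2 on the KO array and 55.4 on the control array, at least 6.01-fold higher. Dazl, which binds mRNAs in germ cells, had 307.8 on the KO array and 59.5 on the control array, at least 3.76-fold higher. The second Dazl probe set had 123.0 on the KO array and 20.3 on the control array. Its log2 ratio was at least 0.59, a bound short of 2-fold. Hormad1, of the meiotic chromosome axis, had 252.6 on the KO array and 27.5 on the control array, at least 3.09-fold higher. In all of them the control signal was below its floor.

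Stk31, a testis kinase-like protein, was above the floor on both arrays. It had 263.6 on the KO array and 84.9 on the control array, 2.31-fold higher, and its 2 probe sets averaged 1.33 ± 0.18 (SD). Mael, of the piRNA pathway, had 802.2 on the KO array and 314.2 on the control array (log2 ratio 0.93), and Mov10l1, a piRNA helicase, had 183.2 on the KO array and 86.6 on the control array (0.66). Both passed 2-fold only as deposited.

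None of the other targets with a single-gene probe set had a ratio or bound past 2-fold relative to the shift. Stag3, the meiotic cohesin subunit, had 612.2 on the KO array and 311.9 on the control array (0.55), and Taf7l, a germ-cell paralog of a TFIID subunit, had 201.8 on the KO array and 109.2 on the control array (0.46). Majin, a meiotic telomere protein, had 107.0 on the KO array and 64.2 on the control array (0.31), with the control signal near its floor. Sycp3, of the synaptonemal complex, had 190.8 on the KO array and 220.6 on the control array (-0.63). Further targets were named after their values were seen. The germ-cell helicase Ddx4, the meiotic recombinase Dmc1 and Cpeb1 had -0.05, -0.13 and -0.07. Sycp1, a partner of Sycp3, was above the floor on the control array alone (65.9 on the KO array and 67.8 on the control array), a log2 ratio of at most -0.30. The cohesin gene Smc1b had 98.9 on the KO array and 7.9 on the control array, a log2 ratio of at least 0.27. Tex101 had 95.9 on the KO array and 6.8 on the control array (at least 0.23). Mei1 had 81.6 on the KO array and 53.2 on the control array (at least -0.00). Whether Smc1b, Tex101 and Mei1 passed 2-fold cannot be read from these lower bounds. The 2 probe sets shared by Tuba3a and Tuba3b, testis tubulins, differed. One had 2027.6 on the KO array and 612.8 on the control array (log2 ratio 1.30), the other 1814.8 on the KO array and 1034.3 on the control array (0.39), and the probe set of Tuba3b alone was below both floors.

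On the same arrays, none of the 9 genes was 2-fold different. With 1.09% of all genes higher and 0.532% lower relative to the shift, that count is near the background and sets no contrast with the targets. Of the 10 ES cell markers, 5 lay above the shift and 5 below it, with a median of -0.03. The pluripotency factors Klf4, Nanog and Esrrb passed 2-fold upwards on the KO array (log2 ratios of 1.92, 1.30 and 1.18), beside 1.09% of all genes. Utf1 and Fgf4 had -0.62 and -0.51 and were dimmer on the KO array as deposited too, and Pou5f1 and Sox2 had -0.13 and -0.07. The part of these differences in the germline ratios was not tested.

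**Figure D4:**
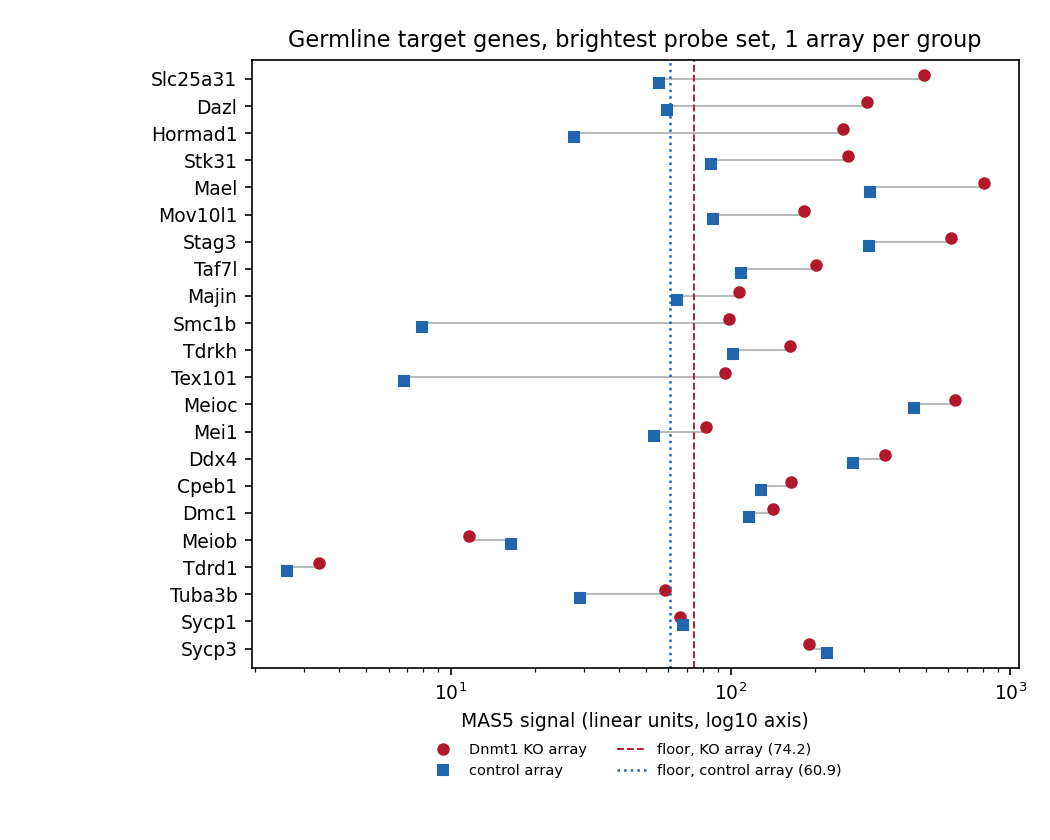
MAS5 signals (linear units on a log10 axis) of the brightest probe set of the 22 germline targets with a probe set of their own, ordered by log2 ratio, with the KO array as circles, the control array as squares and the floors as vertical lines. Slc25a31, Dazl, Hormad1, Smc1b, Tex101 and Mei1 are above the floor on the KO array alone. Of the targets above a floor, Sycp3, at the bottom, and Sycp1 are dimmer on the KO array.

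The complex meets DNA through Mga with Max, at the E-box CACGTG, and through E2f6, at the core E2F motif GCGGGA. Promoter windows of 300 bases were therefore searched for both motifs on both strands. The E-box is its own reverse complement, and the E2F motif reads TCCCGC on the other strand. The motifs share no bases in the windows shown. RefSeq held windows for 22 of the 24 targets, and the first listed window of each gene was used. Of these 22, 12 (54.5%) held the E-box, against 7.24% of the windows of 27025 genes. The E2F motif was in 13 (59.1%) of the target windows, against 20.0% of all, and both motifs were in 8 (36.4%), against 2.05%. Both motifs contain CpG, and the target windows had a median of 21.5 CpG, against 7 over all genes. Among windows with at least 15 CpG, a limit set after the values were seen, 60.0% of 20 target windows and 11.5% of 9514 windows held the E-box, and 60.0% and 45.2% held the E2F motif. The list was made of genes known as targets of these factors, so its motifs are not independent of it.

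Among the measured targets with a window, ratios overlapped between genes with and without each motif. The 11 with the E-box ranged between -0.63 (Sycp3) and at least 2.59 (Slc25a31), with a median of 0.55 and 3 genes at least 2-fold higher. The 7 without it ranged between -0.13 (Dmc1) and at least 1.91 (Dazl), with a median of at least 0.23 and 1 gene at least 2-fold higher. That median is the lower bound of Tex101, and Dazl, Smc1b and Mei1, also without the E-box, are lower bounds too. With the E2F motif, 11 genes had a median of 0.05 and 2 genes at least 2-fold higher. The 7 genes without it had a median of at least 0.46, also with 2 such genes. These counts leave out genes whose lower bound falls short of 2-fold. With 1 array per group, these differences have no test.

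The windows shown are those of the targets past 2-fold that held either motif, and, chosen after its value was seen, that of Sycp3, which held both motifs and had the lowest ratio. They are from RefSeq on GRCm38.p6, read 5′ to 3′ along the gene, with the E-box and the E2F motif in capitals. Positions are counted from 1 at the 5′ end. Slc25a31 has the E-box at 158 and the E2F motif, in its reverse form, at 271. Hormad1 has the E2F motif at 156 and E-boxes at 194 and 231, and Stk31 has an E-box at 196. Sycp3 has the E2F motif at 104 and E-boxes at 187 and 208. A match is a description of these letters and not of binding.
Slc25a31 promoter, chr3:40708621-40708920, plus strand: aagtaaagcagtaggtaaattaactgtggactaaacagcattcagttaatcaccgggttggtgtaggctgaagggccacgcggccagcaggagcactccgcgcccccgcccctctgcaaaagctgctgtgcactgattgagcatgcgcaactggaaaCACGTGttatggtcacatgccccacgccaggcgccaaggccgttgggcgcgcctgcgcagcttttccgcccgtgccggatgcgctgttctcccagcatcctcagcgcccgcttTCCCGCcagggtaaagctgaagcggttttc
Hormad1 promoter, chr3:95559427-95559726, plus strand: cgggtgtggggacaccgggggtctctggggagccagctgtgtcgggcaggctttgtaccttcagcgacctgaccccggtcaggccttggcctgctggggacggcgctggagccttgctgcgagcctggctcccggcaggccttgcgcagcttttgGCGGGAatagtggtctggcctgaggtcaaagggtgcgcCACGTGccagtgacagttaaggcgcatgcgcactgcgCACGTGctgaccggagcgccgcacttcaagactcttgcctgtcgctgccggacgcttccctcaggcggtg
Stk31 promoter, chr6:49395289-49395588, plus strand: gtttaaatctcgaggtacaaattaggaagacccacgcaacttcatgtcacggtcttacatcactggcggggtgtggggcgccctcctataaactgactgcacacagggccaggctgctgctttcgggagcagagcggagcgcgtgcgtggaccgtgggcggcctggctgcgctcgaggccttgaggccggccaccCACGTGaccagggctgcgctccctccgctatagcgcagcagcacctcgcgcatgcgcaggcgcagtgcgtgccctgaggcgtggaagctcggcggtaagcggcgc
Sycp3 promoter, chr10:88459337-88459636, plus strand: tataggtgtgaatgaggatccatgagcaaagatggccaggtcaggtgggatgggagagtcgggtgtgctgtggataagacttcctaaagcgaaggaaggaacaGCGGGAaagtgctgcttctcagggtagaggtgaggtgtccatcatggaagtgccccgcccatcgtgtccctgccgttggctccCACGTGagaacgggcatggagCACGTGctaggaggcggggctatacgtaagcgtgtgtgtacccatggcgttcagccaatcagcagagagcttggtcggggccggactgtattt

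Among the 9 genes above, 8 had a first listed window in the table. The windows of E2f6 and Rnf2 held the E2F motif, and that of Max alone held the E-box. These were 25% and 12.5% of the 8 windows, beside 20.0% and 7.24% of the first listed windows of all genes. With at least 15 CpG, the shares over all genes were 45.2% and 11.5%, so neither motif stood out among these 8. E2f6 and Rnf2 lay on opposite sides of the median gene (0.12 and -0.21).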

How the data were processed

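The deposited signal intensities, in 1 column per array, were made by the authors with MAS5, per the submitters' processing notes. Neither a target intensity nor a scaling step is stated there, and detection calls were not used here. RNA was labelled with biotin through a single round of cRNA amplification, per the labels' protocols. Of 45101 probe sets, 64 Affymetrix controls were left out. The platform annotation gave 34958 probe sets 1 symbol, 932 several and 9211 none, and symbols were updated by gene identifier to RefSeq GRCm38.p6. Signals below an array's median were raised to it, log2 ratios were taken, and the median ratio of genes brighter than both floors was subtracted. Where only 1 array was above its floor, the ratio is a bound. No test was possible with 1 array per group, which also sets the precision. Genes past 2-fold were counted. Tools were Python 3.11.15, numpy 2.4.6, pandas 2.3.3 and statsmodels 0.14.6 (lowess). The procedure was tested on simulated data.

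The members and gene lists were chosen with earlier results of these data known. Named by rule were all members, Dnmt1, the genes of each related list past 2-fold and up to 3 others with the largest ratios in size (6 for germline targets). The rule did not cover cell type markers. Those, and other genes such as Tfdp2, Cbx1, Usp7, E2f1, Pcgf3, the Myc genes, Mxd1, Mxd4, Mlx and Mlxip, were named after their values were seen. Alternatives changed the scaling, the floor, the choice of probe set, the fold and the genes that set the shift. Protein sequences were not used here.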

Additional observations from a re-analysis of the deposited data

How the results depend on the processing

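The count of members at least 2-fold higher or lower stayed at 0 under every alternative run at that fold (scaling, floor, probe set choice, shift without chromosome 8). A 1.5-fold threshold also gave 0 in each direction relative to the shift, whereas 3 members were at least 1.5-fold higher as deposited, a setting chosen once the data had been seen. The median log2 ratio of the members was 0.55 as deposited, and lay between 0.03 (mean over probe sets) and 0.20 (no floor with 16 added to each signal, also chosen later) in the other settings. All 9 single-gene ratios moved by more than the pooled SD between probe sets as deposited, which is the constant shift, and none did under the other alternatives, which included quantile normalization, lowess and a trimmed mean. Rnf2 and Kdm5c were above 0 only as deposited, and Mga and Yaf2 lay above 0 in 3 settings each. Taking Rybp from its shared probe sets, also added later, gave it 0.19 and the 10 genes a median of 0.13. Of the 19 germline targets, 6 were at least 1.5-fold higher relative to the shift, beside 4.74% of all genes, and 12 as deposited, beside 28%. Counts at 2-fold were 6 of 20 with the floor at the 25th percentile and 6 of 22 with no floor and 16 added to each signal. They were 2 of 17 with plain _at probe sets only, which drop the Hormad1 and Stk31 probe sets. With the floor at the 75th percentile, which leaves fewer genes and raises the control floor, the count was 0 of 8. The median of the targets, with bounds taken as values, was 0.27 with the settings described and 0.70 as deposited. It was 0.52 with the floor at the 25th percentile, 0.10 with the floor at the 75th and 0.40 under lowess and under quantile normalization. No paired analysis was possible because each group has 1 array, and no replicate could be left out. Without detection calls, low signals such as those of the other E2f6 probe set could not be called present or absent.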

Other observations

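Some partner genes were read differently by their probe sets. Kdm5a, a paralog of Kdm5c, had a log2 ratio of 0.05 on its brightest probe set but -0.50 and -0.49 on the other 2 above both floors, a mean of -0.31 ± 0.32 (SD over 3 probe sets). Wdr5, a WD-repeat subunit shared by several chromatin complexes, had -0.12 and 0.39 on its 2 probe sets. E2f5 had a mean of 0.11 ± 0.43 (SD over 3 probe sets), between -0.23 and 0.59. These genes were named after their values were seen, and their direction was not settled by these arrays.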
